A study of Rattus norvegicus with 2 samples.

Results

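The p53 target genes apart from p21 were followed as a group of 10 genes, Mdm2, Ccng1, Bax, Bbc3, Phlda3, Sesn1, Sesn2, Zmat3, Aen and Plk2. They were found through the gene symbols of the array's annotation, among 14217 genes listed under a single symbol. Of the 10, 9 genes were measured, by 14 probe sets, and all 9 lay above the floor on signal explained below, as did 9514 genes in all. The 1 probe set that lists Bax also lists a second gene, LOC681314, so it is shown apart and enters no count.

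The samples were rat liver remnants taken 24 h after partial hepatectomy (PH), an operation in which liver lobes are cut away. The groups 1/3PH and 2/3PH are named for the fraction of liver removed, and the series' design text describes minimal replication of DNA in the former and a robust response in the latter. Each group was 1 array of RNA pooled from 3 rats, so the 6 animals gave 2 measurements. The sources used here give no strain, sex, age or further treatment, and no unoperated or sham-operated liver and no second time point was analysed. There was no replicate array, so no test was made and no difference below carries a p-value or an animal-to-animal error. A higher signal on 1 array can also come from a lower signal on the other, since no baseline was measured.

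The transcription factor p53 is held at a low level in resting cells by the ubiquitin ligase Mdm2 and accumulates after DNA damage and other stresses. It binds DNA as a tetramer at pairs of short half-sites and raises the transcription of genes that halt division, repair DNA, change metabolism or start apoptosis. Its best known target in regenerating liver is Cdkn1a, which encodes p21, the inhibitor that restrains the entry of hepatocytes into DNA synthesis. The genes described here are the other arms of that programme, from the feedback on p53 itself to cell death and the control of growth signals.

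Windows of 300 bases, 250 before and 50 after the annotated start, were held by the RefSeq promoter table of assembly GRCr8 for 7 of the 10 genes, all but Bax, Bbc3 and Zmat3. Each was scanned for the p53 response element, read as a pair of adjoining p53 half-sites of 10 bases. The half-site consensus is made of purines, then C, A or T bases, G, then pyrimidines, and it is its own reverse complement, so 1 scan covers both strands. No gap was allowed between the half-sites. The closest match of Ccng1 had 1 mismatch in 20 bases, as few as in 0.0717% of all 33469 windows. For Aen it had 2 mismatches, as few as in 0.872% of windows. For Sesn1 there were 3 mismatches, as in 6.18% of windows, and for Phlda3 there were 4, as in 29.7%. Mdm2 and Sesn2 had 5 each, as in 76.2%, and Plk2 had 6, as in 98.6%. For comparison, Cdkn1a had 1. A match describes letters in this window only, and many p53 elements, that of Mdm2 among them, are known to lie in introns or farther upstream.

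The closest matches of 4 genes and that of Cdkn1a are shown because they range from 1 mismatch in Ccng1 and Cdkn1a to 4 in Phlda3. Capitals mark the bases that match the consensus and lower case marks the mismatches.
Ccng1: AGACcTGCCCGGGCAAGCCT
Aen: GGGCATGTCCGGGCAAGCaa
Sesn1: AAGCTTGTTTttGCTgGCCT
Phlda3: GAACATGTaaGGGCAcaTCC
Cdkn1a: GAACATGTCTtGACTTGTTC
In GRCr8 these lie at chr10:25685099-25685118 on the minus strand, chr1:142224503-142224522 on the plus strand, chr20:46948547-46948566 on the plus strand, chr13:49744999-49745018 on the plus strand and chr20:7150731-7150750 on the plus strand. Counted from the annotated start, the match of Ccng1 runs from base -242 to -223, that of Aen from -30 to -11 and that of Sesn1 from -172 to -153. The match of Phlda3 spans the start, from base -4 to 16, and that of Cdkn1a runs from -201 to -182. Both Ccng1 and Aen hold 1 half-site without any mismatch, as Sesn1 does, whereas the best half-site of Phlda3 has 2. Of all windows, 7.98% hold a half-site without mismatch and 99.8% hold one with at most 2, so that of Phlda3 does not stand out.

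The 250 bases upstream of the start are printed for Ccng1 and Aen, the members with the fewest mismatches. The element is in capitals to show where it sits in each.
Ccng1: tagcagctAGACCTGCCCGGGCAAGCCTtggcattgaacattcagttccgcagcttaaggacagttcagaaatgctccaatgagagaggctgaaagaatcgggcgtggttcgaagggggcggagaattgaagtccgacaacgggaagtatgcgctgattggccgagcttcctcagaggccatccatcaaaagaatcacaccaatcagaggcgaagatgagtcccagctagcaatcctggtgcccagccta
Aen: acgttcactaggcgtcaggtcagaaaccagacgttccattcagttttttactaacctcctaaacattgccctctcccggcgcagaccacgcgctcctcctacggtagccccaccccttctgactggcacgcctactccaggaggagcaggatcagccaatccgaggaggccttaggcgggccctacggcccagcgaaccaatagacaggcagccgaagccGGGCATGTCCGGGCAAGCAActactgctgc
The stretch of Ccng1 is chr10:25684877-25685126, minus strand, and that of Aen is chr1:142224283-142224532, plus strand, both in GRCr8. The element lies near the far end of the stretch in Ccng1 and next to the start in Aen. Whether any of these matches bears on the signals of the arrays was not tested.

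Signals are MAS 5.0 values on the linear scale, and ratios are log2 differences, 2/3PH minus 1/3PH. A gene was called at 2-fold or more on its brightest probe set. The floor was the median over all probe sets of the mean log2 signal, 6.48, a signal of 89.2. Of the 9 measured members, 4 were at least 2-fold higher after 2/3PH, namely Aen, Phlda3, Ccng1 and Mdm2, and 1 was at least 2-fold lower, Sesn1. The background was 6.12% of all genes above the floor for higher and 3.68% for lower, against 44.4% and 11.1% of the members. The other 4, Plk2, Zmat3, Sesn2 and Bbc3, stayed within 2-fold. The median log2 ratio of the members was 0.75, beside 0.03 over all 9514 genes. These shares describe 9 genes on 2 arrays, and the members were listed with earlier results of these arrays known.

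**Figure D1:**
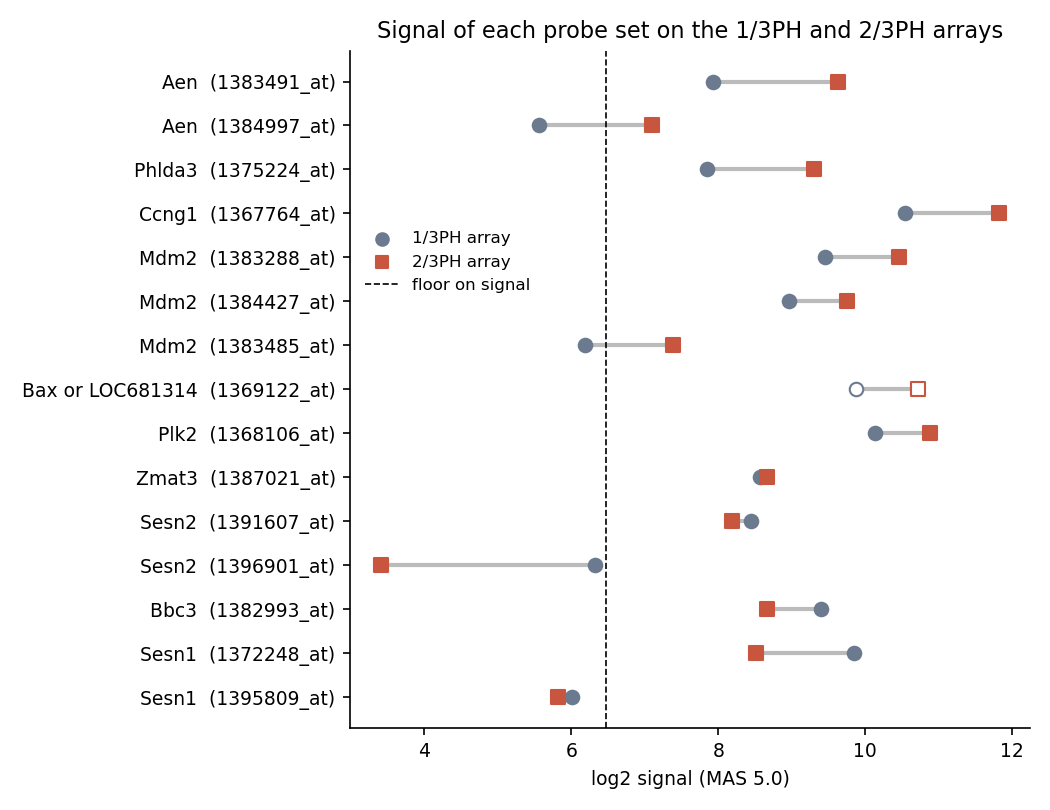
Log2 signal of every probe set that lists a member, on the 1/3PH array (circles) and the 2/3PH array (squares), with the floor of 6.48 as a dashed line. Open symbols mark the probe set shared by Bax and LOC681314. The square lies to the right of the circle for all probe sets of Aen, Phlda3, Ccng1, Mdm2 and Plk2, and to the left for those of Bbc3, Sesn1 and Sesn2.

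The feedback genes were both higher. Mdm2, the ligase that marks p53 for degradation and is itself induced by p53, had signals of 700.3 (1/3PH) and 1405 (2/3PH) on its brightest probe set, 1383288_at. This is a log2 ratio of 1.00, or 2.01-fold, right at the 2-fold limit. A second probe set, 1384427_at, gave 498 and 862, a log2 ratio of 0.79, which misses the limit. The third, 1383485_at, gave 73.0, under the floor, and 166, a difference of at least 1.86-fold. All 3 probe sets of Mdm2 thus placed the 2/3PH array higher, by amounts on both sides of 2-fold.

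Ccng1, cyclin G1, which brings the phosphatase PP2A to Mdm2 and forms a second loop back to p53, had signals of 1486 and 3616. Its log2 ratio was 1.28, or 2.43-fold higher after 2/3PH. Only 3.46% of the genes above the floor had a larger ratio. The ratio of Ccng1 rests on 1 probe set, 1367764_at.

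The genes that favour cell death lay on both sides of 0. Aen, a nuclease induced by p53 that enhances apoptosis, had the highest ratio of the 9, with signals of 245 after 1/3PH and 791 after 2/3PH. The log2 ratio was 1.69, or 3.24-fold, which ranked 194 from the top among the 9514 genes. Its second probe set, 1384997_at, gave 47.1, under the floor, and 137, at least 1.54-fold higher. Both probe sets of Aen therefore placed the 2/3PH array higher.

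Bbc3, which encodes the BH3-only protein Puma that neutralises the survival proteins of the Bcl-2 family, stood on the other side. Its signals of 676 (1/3PH) and 406 (2/3PH) gave a log2 ratio of -0.73, or 1.66-fold lower, which does not reach 2-fold. The probe set shared by Bax, the pore-forming effector of the same family, and LOC681314 gave 937 and 1685, 1.80-fold higher. Which of these 2 genes it measured was not tested. Counted as Bax, it would keep the calls at 4 upward and 1 downward, now of 10 members, and the median log2 ratio would be 0.80.

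Phlda3, a small protein that competes with the kinase Akt for membrane lipids and so restrains growth and survival signalling, was among the higher members. Its signals were 231 after 1/3PH and 630 after 2/3PH on probe set 1375224_at, a log2 ratio of 1.44, or 2.72-fold. A larger ratio was found for 2.66% of genes.

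The sestrins hold back the growth kinase complex mTORC1 when nutrients or redox balance fail, and Sesn1 was the 1 member called lower. Sesn1 had signals of 918 after 1/3PH and 365 after 2/3PH on probe set 1372248_at, a log2 ratio of -1.33, or 2.52-fold lower. Only 1.74% of genes had a lower ratio. Its second probe set, 1395809_at, was under the floor on both arrays, at 64.4 and 56.5, and gives no fold. The call on Sesn1 is thus that of 1 probe set, and the mean over both probe sets was -0.76.

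Sesn2, a sestrin that senses leucine, had signals of 348 and 291 on probe set 1391607_at, a log2 ratio of -0.26 that lies well within 2-fold. That ratio was 0.00 under scaling to the hybridisation controls and 0.17 under scaling to the poly-A controls. A second probe set, 1396901_at, read 79.9 and 10.6, both under the floor, so no fold is given. Sesn2 therefore had no clear direction. The log2 ratio of Sesn1 was 1.07 below that of Sesn2, on their brightest probe sets, whereas with the mean over probe sets the order was reversed, at -0.76 for Sesn1 and -1.58 for Sesn2.

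Zmat3, a zinc finger protein that binds RNA and regulates splicing, was the member closest to equal signal on the deposited scale, whereas under both control scalings Sesn2 was. The signals of 379 (1/3PH) and 407 (2/3PH) gave a log2 ratio of 0.10, which was 0.00 after quantile normalization. Plk2, a polo-like kinase of the centrosome that is induced by p53 and by mitogens, had signals of 1123 and 1890. Its log2 ratio was 0.75, or 1.68-fold, higher after 2/3PH but short of the limit. It reached the limit when the arrays were scaled to spike-in controls, at 1.01 for the hybridisation controls and 1.18 for the poly-A controls.

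**Figure D2:**
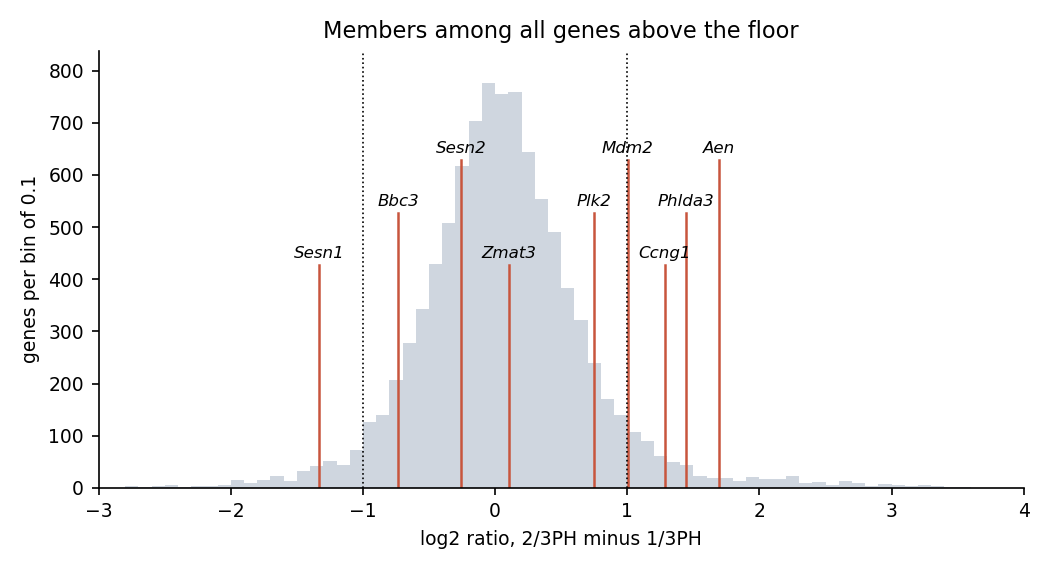
Number of genes above the floor in bins of 0.1 of the log2 ratio, 2/3PH minus 1/3PH (grey bars), with a line at each member's ratio and dotted lines at 2-fold. The lines of Aen, Phlda3 and Ccng1 stand in the sparse right tail, Mdm2 on the 2-fold line, Zmat3 and Sesn2 in the bulk, and Sesn1 in the left tail.

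The members were compared with the only error these arrays allow, the spread between probe sets of a gene. In 2067 genes that had more than 1 probe set over the floor, the log2 ratios of 1 gene's probe sets had an SD of 0.33, which gives 0.46 for a difference between 2 genes. This is an error within the arrays and leaves out the variation between animals. In the order of the ratios, Aen, Phlda3, Ccng1, Mdm2 and Plk2 each differed from the next by less than 0.46, with steps between 0.16 and 0.28. The step from Plk2 down to Zmat3 was 0.65, that from Zmat3 to Sesn2 0.36, that from Sesn2 to Bbc3 0.47 and that from Bbc3 to Sesn1 0.60. The order of neighbours is thus not resolved among the 5 highest genes or between Zmat3 and Sesn2, and the step from Sesn2 to Bbc3 is about the size of that SD. Steps between neighbours against 1 such SD do not divide the members into groups.

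Array scaling moved all members together, and ratios named in the text that are below 0 and smaller in size than these shifts turn positive under them. With the arrays scaled to the 18 hybridisation control probe sets, every log2 ratio was 0.26 larger, and with the 24 poly-A control probe sets 0.43 larger. The background then became 10.8% of genes higher and 2.06% lower under the former, and 16.4% and 1.32% under the latter. Aen, Phlda3 and Ccng1 stayed at least 2-fold higher under the 8 alternatives run on single members. Mdm2, at the limit on the deposited scale, lay between 0.93 and 1.44, and was under 2-fold with median centring, quantile normalization, loess, 64 added units and the mean over probe sets. For Sesn1 the ratio was -0.90, within 2-fold, under poly-A scaling.

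**Figure D3:**
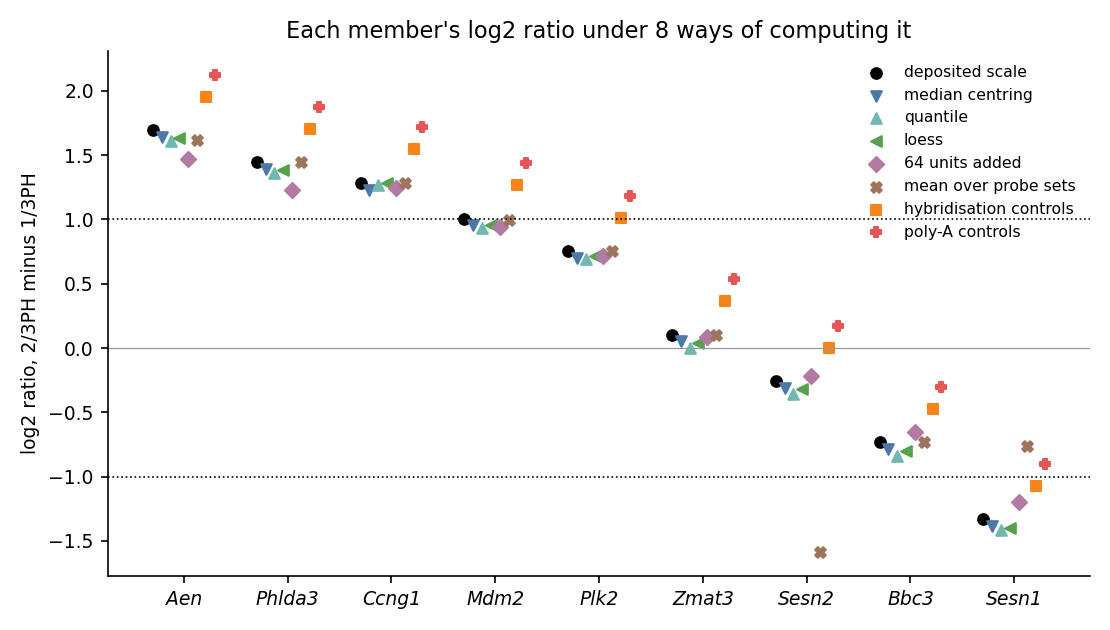
Log2 ratio, 2/3PH minus 1/3PH, of each member on the deposited scale and under 7 alternatives, with dotted lines at 2-fold. Aen, Phlda3 and Ccng1 lie above the upper line throughout, and Mdm2 lies around it. The point that stands apart for Sesn2 and the highest point of Sesn1 come from averaging in a dim probe set.

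Other targets of p53 were taken from a list of 49 entries, drawn up with some earlier results of these arrays known. Of these, 39 were measured and 33 lay above the floor, of which 6 passed 2-fold upward, 3 passed it downward and 24 did neither. Those called shares were 18.2% upward and 9.09% downward, beside 6.12% and 3.68% of all genes above the floor. The median log2 ratio was -0.01, beside 0.75 for the members. Cdkn1a itself had signals of 330 and 1479, a log2 ratio of 2.17, larger than that of any member. Gtse1, which is made in G2 and counteracts p53, stood at 2.10, and Pidd1, a death domain protein of the caspase-2 platform, at 1.41. On the lower side were the thiamine transporter Slc19a2 at -1.87, Dcxr at -1.60 and Igfbp3 at -1.58. Gadd45a, a p53 target in DNA damage, stood at -0.21, a sign that turned under both control scalings.

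Regulators of p53 were mostly close to equal. In this list 15 genes reached the floor, and 2 of them, 13.3%, passed 2-fold upward and none downward, around a median log2 ratio of 0.20. Of all genes above the floor, 6.12% passed upward and 3.68% downward. Under the hybridisation and poly-A control scalings 3 and 4 regulators passed upward, where the background itself rose to 10.8% and 16.4%. The damage kinases Atr and Chek2 were 2.31-fold and 2.24-fold higher and Chek1 1.82-fold. Mdm4, the relative of Mdm2 that masks the activation domain of p53, had signals of 202 and 303, a log2 ratio of 0.58. The phosphatase Ppm1d, also a p53 target, had a log2 ratio of -0.01.

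Relatives of the members varied in direction. Among the cyclins G, Ccng2 had signals of 883 and 466, 1.89-fold lower, against 2.43-fold higher for Ccng1. Of the relatives of Phlda3, Phlda2 was 2.03-fold higher and Phlda1 was under the floor on both arrays. Sesn3 was also under the floor on both arrays, at 83.5 and 87.6. Of the polo-like kinases, Plk4, which drives centriole duplication, was 7.73-fold higher, and Plk1, the mitotic kinase, was at least 5.73-fold higher from a signal of 9.81 to 511. Plk3, also a stress-induced kinase, was at 92.3 and 30.4, around the floor.

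Partners of Bbc3 and Bax in the Bcl-2 family stayed within 2-fold. All 10 members of that list above the floor did so, with log2 ratios from -0.90 to 0.30 and a median of -0.15. Of all genes above the floor only 6.12% were called higher and 3.68% lower, so most genes of any list this size would stay within 2-fold. Mcl1, a survival protein, stood at -0.12, and Bcl2l1, another, at 0.21. The BH3-only gene Bcl2l11 (Bim) stood at -0.67, on the same side as Bbc3, and Bnip3l at -0.90. Bcl2 and Bak1 were under the floor on both arrays.

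Downstream of the sestrins, the AMPK, GATOR and mTORC1 genes also stayed within 2-fold, all 25 above the floor. Most genes on the arrays did so too, with 6.12% of those above the floor called higher and 3.68% lower. The median log2 ratio of the 25 was -0.05, and the lowest were Ddit4, a p53- and stress-induced inhibitor of mTORC1, at -0.97 and Sqstm1 at -0.73. The highest was the GATOR1 subunit Depdc5 at 0.57.

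**Figure D4:**
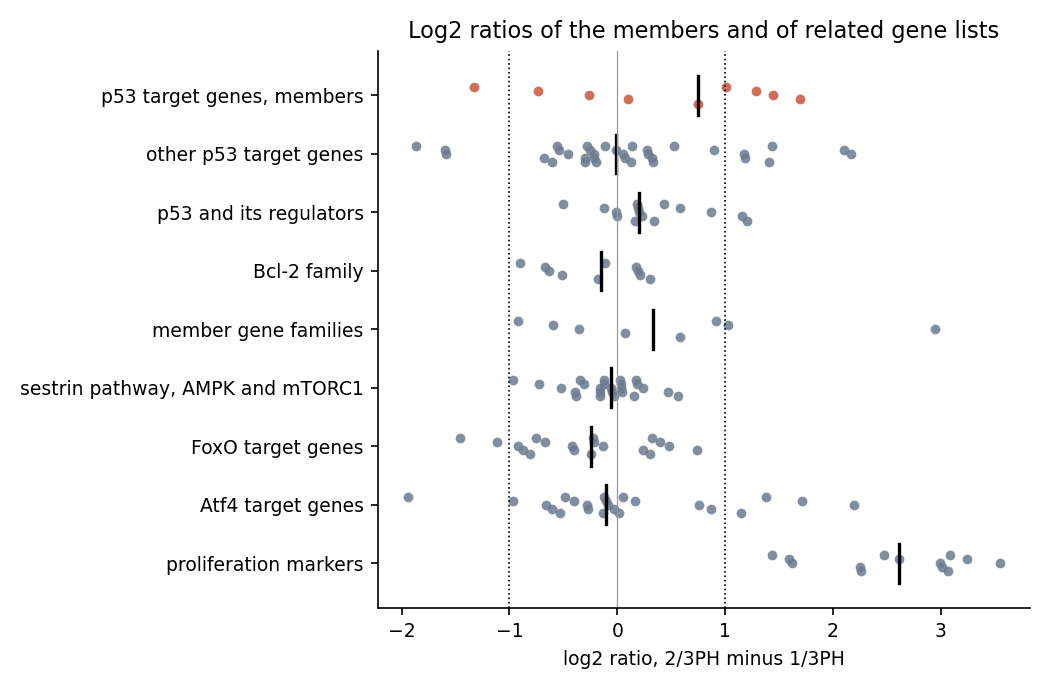
Log2 ratio, 2/3PH minus 1/3PH, of each gene above the floor in the member list (top, red) and in 8 further lists, with the median as a black bar and dotted lines at 2-fold. The members spread from -1.33 to 1.69 around a median of 0.75, whereas the proliferation markers lie from 1.44 to 3.55.

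Hepatocyte transcripts were bright on both arrays, with Alb at log2 signals of 15.08 and 14.85 and Ttr at 15.07 and 14.88. Each of the 13 proliferation markers over the floor passed 2-fold upward, beside 6.12% of all genes over it. Their summed signal was 9623 (1/3PH) and 42448 (2/3PH). Of the other cells of liver, all 9 measured macrophage markers had ratios below 0, with sums of 18643 and 12147. All 7 endothelial markers and 7 of 10 stellate cell markers above the floor did so too, with sums of 11915 and 7598 and of 14833 and 8942. The 9 hepatocyte markers had sums of 287150 and 249251, all below 0 in ratio, and no marker in any of these lists read 0. Ratios below 0 were also found for all 5 neutrophil and erythroid markers, 1 of 3 cholangiocyte markers and 1 of 2 lymphocyte markers. These counts are on the deposited scale, where the median log2 ratio over all genes above the floor was 0.03. Under poly-A control scaling that median was 0.47. There 6 of 9 macrophage, 5 of 7 endothelial, 6 of 10 stellate and 1 of 9 hepatocyte markers were below 0. The part of cell division or of cell composition in the members' ratios was not tested, and fewer cells of a type cannot be told apart from less RNA per cell in pooled tissue.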

How the data were processed

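RNA of remnant liver, pooled from 3 rats per group, was hybridised to 1 Affymetrix array per group. Per the labels' protocols, biotin-labelled cRNA was made with a 3' IVT Express kit, and MAS 5.0 in GeneSpring 11.0 gave 1 signal per probe set. The deposited values are log2 signals of 31099 probe sets, and the log2 base was read from the values: as powers of 2, both arrays have a mean of 500 after trimming 2% at each end. Such scaling hides a change in total RNA per cell. The sources used here give neither detection calls nor the scaling target. Of 31042 probe sets that were not controls, 20826 listed 1 gene, 436 several and 9780 none in the annotation used.

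Each gene was represented by its brightest probe set, and the log2 ratio of 2/3PH minus 1/3PH was computed with Python 3.11.15, numpy 2.4.6 and pandas 2.3.3. The floor was the 50th percentile of the mean log2 signal. Where 1 array lay under the floor, the fold is a lower bound with the floor in its place. All members were named with all their probe sets, and from other lists up to 4 genes with the largest ratios plus a fixed set of relatives. The members and lists were chosen with earlier results of these data known, and further genes of the other p53 targets and regulators (Pidd1, Igfbp3, Gadd45a and Ppm1d) were named after their values were seen. Slc3a2, Shmt2, Atf4 and Ddit3 of the Atf4 list and Ttr of the hepatocyte markers were also named outside that rule. The calculation was tested on simulated data. Alternatives were other scalings (median centring, quantile, loess, control probe sets), an offset of 64 signal units, averaging of a gene's probe sets, leaving out less specific probe sets, other floors and other limits. The number of arrays limits the precision.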

Additional observations from a re-analysis of the deposited data

How the results depend on the processing

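With 1 array per group, no alternative adds replicate error, and "moved" here means by more than the 0.33 SD between probe sets of a gene, or by over 1.5 times for a count. With poly-A control scaling the median log2 ratio of the members was 1.18, beside 0.47 over all genes above the floor. Under it 0 members were at least 2-fold lower, beside 1.32% of all genes. With the floor at the 75th percentile, which left 5 members and 20 other p53 targets, 2 members and 3 other targets were at least 2-fold higher, beside 4.97% of all 5729 genes left. A limit of 1.5-fold gave 2 of 9 members and 5 of 33 other targets lower, beside 12.0% of all genes. A limit of 3-fold gave 1 member higher, 0 lower and 2 other targets higher, beside 2.24% of all genes higher and 0.999% lower. In the remaining alternatives the members at least 2-fold higher numbered 3 to 5, and no called member changed sign. The values of single members moved under poly-A scaling, to 2.13 for Aen, 1.88 for Phlda3, 1.71 for Ccng1, 0.54 for Zmat3 and -0.30 for Bbc3, by that scaling's own shift. With the mean over probe sets Sesn2 was at -1.58, from a probe set under the floor. Counting the shared probe set as Bax was added after seeing the data. Signal close to the floor limits the second probe sets of Aen, Sesn1 and Sesn2. No paired analysis was possible because each group is 1 pooled array.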

Other observations

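Lists of genes driven by other regulators of the sestrins gave mixed values. Sesn1 is also known as a target of FoxO factors, which insulin signalling keeps out of the nucleus, and Sesn2 as a target of Atf4, the factor of the integrated stress response. Among 19 FoxO targets over the floor, none passed 2-fold upward and 2 passed it downward, beside 6.12% and 3.68% of all genes. On the deposited scale 13 ratios lay below 0 and 6 above it. Their median was -0.25, beside 0.03 over all genes above the floor. Under the hybridisation and poly-A control scalings 9 and 7 lay below 0, and the median over all genes rose to 0.30 and 0.47. With poly-A control scaling 1 gene was past 2-fold on each side, beside 16.4% of all genes higher and 1.32% lower. The highest ratio on the deposited scale was 0.74, and the 4 largest in size were all below 0. Pink1, a mitochondrial quality kinase, stood at -1.46 (695 after 1/3PH and 253 after 2/3PH), Klf15 at -1.11, Ccng2 at -0.92 and catalase, Cat, at -0.87.

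Among 23 Atf4 targets over the floor, 4 passed 2-fold upward and 1 downward, around a median of -0.11. These are 17.4% and 4.35%, beside 6.12% and 3.68% of all genes, so the downward share was near the background. The higher ones were Mthfd2 at 2.20, Phgdh at 1.72, Psat1 at 1.38 and the amino acid transporter subunit Slc3a2 at 1.15, whereas Shmt2 stood at -0.48. Nupr1 was lower, at -1.94, and Atf4 itself stood at -0.40 and Ddit3 at -0.09. Both medians and the value of Ddit3 turned positive under scaling to either set of control probe sets. The value of Atf4 did so under poly-A control scaling only.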
